A study of Bos grunniens with 6 samples.

Results

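The abundant stable genes of the yak testis were chosen by their level in the input libraries. Each reached at least 100 FPKM (fragments scaled by transcript length and by sequencing depth) in every input library, and its highest library was at most 2 times its lowest. The rule was met by 101 of 20953 genes in the FPKM table. The values that chose the genes are those of both ages, so their levels and the differences between them are given as a description. Testis RNA came from 3 juvenile yaks (Y6M, 6 months old, before sexual maturity) and 3 sexually mature yaks (Y30M, 30 months old). Each yak gave an input library and a library immunoprecipitated (IP) with an antibody against N6-methyladenosine (m6A). Peaks, the regions where IP reads exceed input reads, were called with MeTDiff over the replicates of both ages together, so a peak has a single value for its enrichment and a single value for the difference between the ages, with no replicate SD.

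m6A is a methyl mark on internal adenosines of mRNA. A methyltransferase complex around METTL3 and METTL14 writes it, FTO and ALKBH5 can remove it, and YTH-domain proteins bind it and affect splicing, translation and decay. As the testis matures, meiotic and post-meiotic germ cells come to fill the seminiferous tubules beside Sertoli and Leydig cells, so that a transcript level in whole tissue combines all of these cells. In such bulk samples, fewer cells of a type and less RNA per cell cannot be told apart.

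The input libraries were not of equal depth, and Y6M replicate 3 was the shallowest. Relative to Y30M replicate 1, the Y6M libraries had depths of 0.751 to 1.03 and the other Y30M libraries of 1.05 and 1.07, read from the steps of low FPKM values. FPKM of all genes added up to 683862-702778 in the Y6M libraries and 587932-624025 in those of Y30M. Of 46 marker genes listed for testis cell types, 8 had a name in the tables used, and none of them was among the abundant stable genes. With age 6 of the 8 fell, 1 rose and 1 (HORMAD1) did not pass the test, and none was listed at 0. FSHR, the Sertoli cell receptor for follicle-stimulating hormone, fell from 24.8-59.4 FPKM at the younger age to 5.12-9.45 FPKM at the older (limma, Benjamini-Hochberg adjusted p = 0.00488). LHCGR, the luteinizing hormone receptor of Leydig cells, fell from 34.4-67.3 to 1.44-5.37 FPKM (limma, adjusted p = 0.00196). SYCP3, a protein of the synaptonemal complex in spermatocytes, rose from 1.91-5.27 to 7.18-31.4 FPKM (limma, adjusted p = 0.0344). HORMAD1, the other spermatocyte marker with a name, had 6.56-22.7 FPKM at the younger age and 6.06-36.6 FPKM at the older (limma, adjusted p = 0.91). The part of cell makeup in these marker levels and in the results on the abundant stable genes was not tested.

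A gene name was paired with 2147 gene IDs in the tables used and with 2 of the 101 abundant stable genes. These were PSMC1 (ENSBGRG00000006191), an ATPase subunit of the 19S cap of the proteasome, and PA2G4 (ENSBGRG00000001097), an RNA-binding protein associated with ribosomes and cell proliferation. The other 99 are given by their identifiers, and nothing is known here of what they encode. A comparison with lists of ribosomal, respiratory, chaperone and other gene families was therefore void. Over all 9 lists, 34 genes had a name, of which 1 (PSMC1) was an abundant stable gene, 7 rose and 12 fell with age by limma.

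The abundant stable genes had mean levels of 117 to 3323 FPKM over the 6 input libraries, with a median of 190.4 FPKM. Of them, 52 had a mean of 100 to 200 FPKM, 39 of 200 to 500, 6 of 500 to 1000 and 4 of more than 1000. Their part of all FPKM was 4.13, 4.29 and 4.25% in the Y6M libraries (replicates 1, 2 and 3 in this order throughout) and 5.45, 4.41 and 4.98% in the Y30M libraries. The most abundant was ENSBGRG00000006399, with Y6M values of 2739, 2937 and 4055 FPKM and Y30M values of 3204, 2538 and 4466 FPKM. Its highest values were in replicate 3 of both ages, and the groups overlapped. The next were ENSBGRG00000007159, ENSBGRG00000002112 and ENSBGRG00000012154, with means of 1439, 1236 and 1185 FPKM. Their ratios of the Y30M mean to the Y6M mean were 0.812, 1.07 and 0.855. The ages overlapped in the last 2 of them, while in ENSBGRG00000007159 the Y30M values of 1529, 1203 and 1139 FPKM all lay below the lowest Y6M value of 1535 FPKM.

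**Figure D1:**
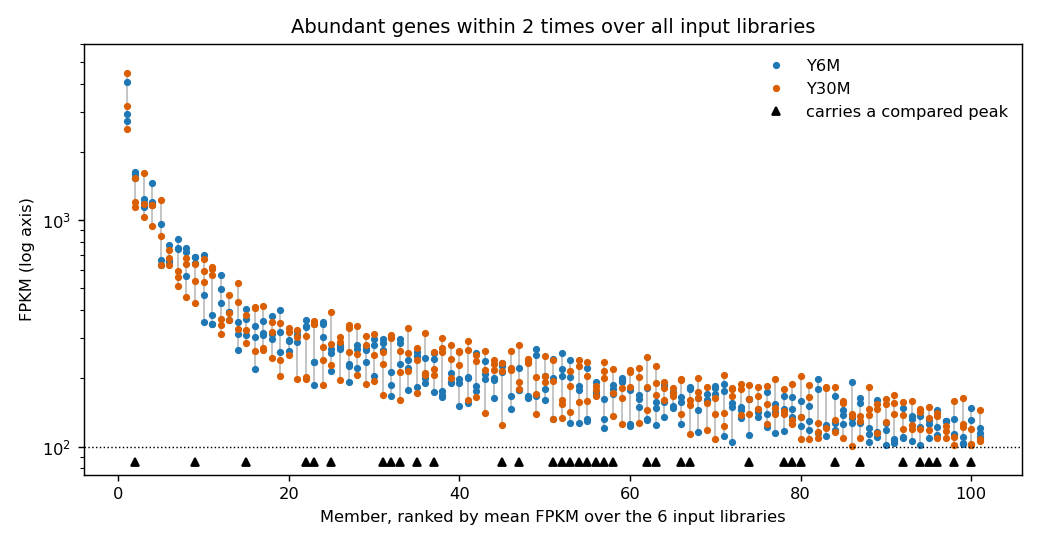
FPKM (log axis) of the 101 abundant stable genes in each of the 6 input libraries, ranked by mean, with blue points for Y6M, orange points for Y30M and grey lines from the lowest to the highest library. Triangles under the dotted line at 100 FPKM mark the 37 genes with a compared m6A peak, of which 2 are among the 10 most abundant.

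The rule bounds the ratio of the highest to the lowest library, which ran from 1.15 to 1.97 with a median of 1.64. The steadiest gene was ENSBGRG00000010897, whose Y6M values were 168, 174 and 192 FPKM and whose Y30M values were 185, 168 and 179 FPKM. The next steadiest were ENSBGRG00000025874, ENSBGRG00000014697, ENSBGRG00000008186 and ENSBGRG00000003083, with ratios of 1.19, 1.22, 1.24 and 1.29. Only the first of these 5 genes carried a peak. At the other end, the genes just inside the limit had ratios of 1.95, 1.96 and 1.97, and those just outside it 2.01, 2.02 and 2.02. The smallest values just inside the level limit were 100.98, 101.04 and 101.07 FPKM, and those just outside were 98.97, 99.84 and 99.93 FPKM.

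Between the ages, the ratio of the Y30M mean to the Y6M mean ran from 0.656 to 1.68, with a median of 1.07, and 63 of the 101 genes had the higher mean in Y30M. The replicates of the ages overlapped in 72 genes, lay apart with Y30M above in 17 and with Y30M below in 12. Over all genes tested the replicates did not overlap in 54.1%, with 32.2% above and 21.9% below, but the rule used this contrast and nothing is read from the difference. The thresholds that the study set for differential expression were an unadjusted p of 0.05 and a 1.5-fold change. They were met by 5 abundant stable genes that were higher in Y30M, against 27.3% of all genes in the limma fit, and by 1 that was lower, against 19% (46.3% in either direction). That fit used the values that chose the genes, so these counts are given as a description too. The widest ratio upwards was in ENSBGRG00000005212, with 346, 381 and 346 FPKM in the Y6M libraries against 572, 621 and 607 FPKM in those of Y30M. The widest downwards was in ENSBGRG00000018680, with 205, 258 and 221 FPKM against 154, 134 and 161 FPKM. In both genes no library of one age reached the range of the other, although both lay inside the limit of 2 times.

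The yaks of one age also differed from each other. The ratio of the highest to the lowest replicate had a median of 1.27 within Y6M and 1.41 within Y30M. Y30M replicate 1 held the highest value in 40 genes and Y30M replicate 2 the lowest in 34, whereas Y30M replicate 1 held the lowest in 2. Y6M replicate 3 held the lowest value in 25 genes. Replicate 3 lay above the mean of replicates 1 and 2 at both ages in 35 genes, below it at both ages in 40 and on different sides in 26.

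**Figure D2:**
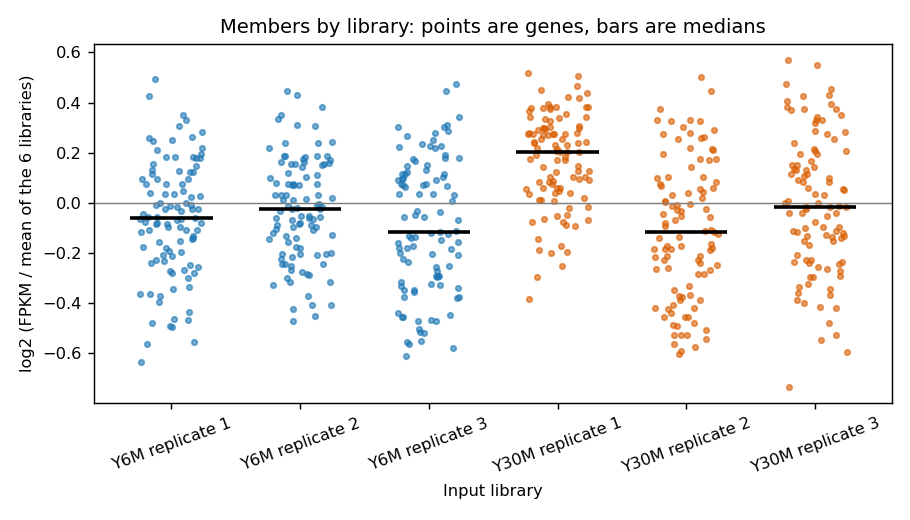
log2 ratio of the FPKM of each abundant stable gene in a library to its mean over the 6 input libraries, with 1 point a gene and black bars at the medians, for Y6M (blue) and Y30M (orange). The median is highest in Y30M replicate 1, at 0.20, and lowest in Y6M replicate 3 and Y30M replicate 2, at -0.12 in both.

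Stability depended on the scaling of the libraries. After FPKM had been brought to an equal total per library (TPM), 89 genes met the rule, and 70 of the 101 were among them. A median-of-ratios scaling left 98 genes, and these held 77 of the 101.

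Of the 101 abundant stable genes, 37 (36.6%) carried at least 1 of the 16318 compared peaks, and 64 carried none. A gene without a listed peak is not thereby shown to lack m6A. Over all genes of the FPKM table, 41.2% carried a peak, a figure that includes the 10481 genes with a smallest value under 1 FPKM, of which 16.6% did. Among other expressed genes peaks were more frequent by count. Genes that stayed within 2 times at a smallest value of 10 to 100 FPKM carried a peak in 71.2% of 930 cases, and those at 1 to 10 FPKM in 78.1% of 526. Abundant genes that exceeded the limit of 2 times carried one in 35.1% of 228 cases, close in value to the abundant stable genes. At the lower levels the genes beyond that limit had smaller shares than the stable ones. These were 60.3% of 2832 genes at 10 to 100 FPKM and 68.3% of 5855 at 1 to 10 FPKM. These shares are descriptions, and the differences between the classes were not tested.

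The share with a peak also differed by level within the abundant stable genes. A peak was listed for 24 of 52 genes with a mean of 100 to 200 FPKM, for 11 of 39 genes at 200 to 500 FPKM and for 2 of 10 genes above that. The 2 were ENSBGRG00000007159 and ENSBGRG00000018498, the latter with Y6M values of 684, 687 and 644 FPKM above all of its Y30M values of 536, 433 and 638 FPKM. The median level was 178 FPKM in genes with a peak and 209.8 FPKM in genes without one. PSMC1 carried 2 peaks. No compared peak was listed for PA2G4, whose 3 Y30M values of 214, 184 and 218 FPKM all lay above its Y6M values of 123, 125 and 178 FPKM.

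**Figure D3:**
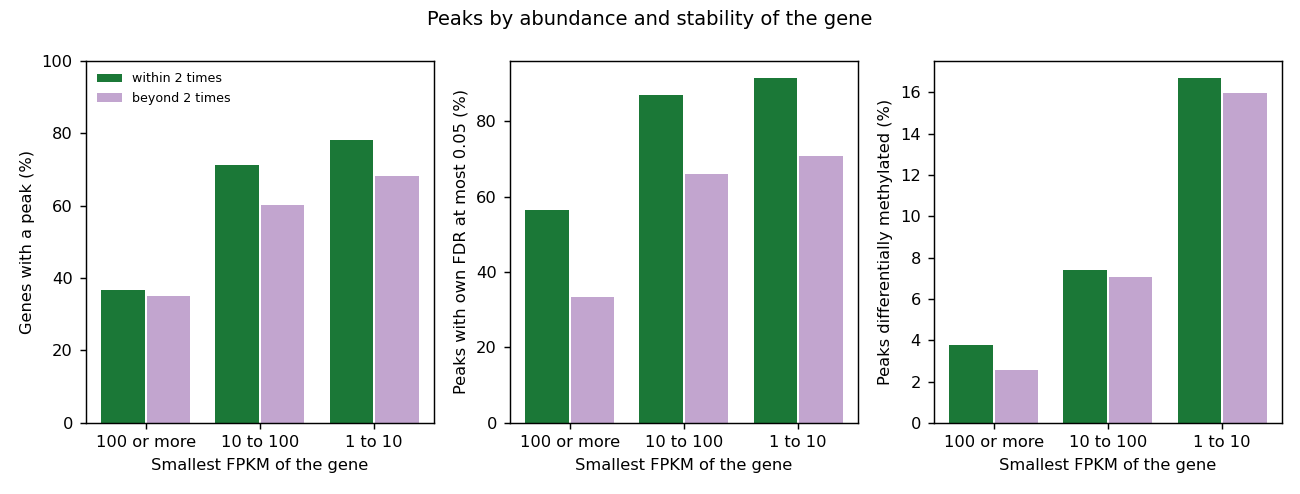
Share of genes with a compared peak, share of their peaks with an FDR of at most 0.05 for their own enrichment, and share of their peaks called differentially methylated, in percent, by the smallest FPKM of the gene and by whether it stayed within 2 times over the 6 input libraries (green) or not (violet). The abundant stable genes are the green bars at 100 or more, at 36.6, 56.6 and 3.77%.

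The 53 peaks on these 37 genes were shallow next to the rest of the table. In the table deposited by the authors their IP signal over input, as a fold, ran from 1.21 to 4.84 with a median of 1.84, against a median of 2.31 over all compared peaks and 2.22 over peaks of stable genes at 10 to 100 FPKM. An FDR of at most 0.05 for their own enrichment was listed for 30 of the 53 peaks, on 20 genes, which is 56.6% against 69% of all peaks. The peaks of abundant genes beyond the limit of 2 times had such an FDR in 33.3% of 117 cases, with a median enrichment of 1.88. The highest enrichment, 4.84, belonged to a peak of PSMC1 whose own FDR was 1. It was followed by peaks of ENSBGRG00000010566 (3.06), ENSBGRG00000013054 (2.96), ENSBGRG00000005086 (2.95) and ENSBGRG00000007159 (2.93). Of these, the first 3 had an FDR of at most 0.05 for their own enrichment.

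Most of these peaks ran over more than 1 exon. Of the 53, 37 (69.8%) consisted of more than 1 exon block, against 52.4% of all compared peaks. The share was 75.2% on abundant genes beyond the limit of 2 times and 66.7% on stable genes at 10 to 100 FPKM. The peak of ENSBGRG00000013054 on chromosome 8 (16312909 to 16324105 in LU_Bosgru_v3.0) had 9 blocks that added up to 847 bp. Exon blocks made up a median of 245 bp per peak (range 143 to 847 bp), against 296 bp over all peaks, while the span with introns had a median of 1029 bp. These medians were 250 and 843 bp on abundant genes beyond the limit of 2 times, and 298 and 1292 bp on stable genes at 10 to 100 FPKM. Most carriers had a single peak, namely 24 genes. There were 11 genes with 2 peaks, 1 with 3 (ENSBGRG00000013122, chromosome 17) and 1 with 4 (ENSBGRG00000013909, chromosome 26). The carriers lay on 17 chromosomes, with 5 genes each on chromosomes 8 and 26, and 11 of the 53 peaks lay on chromosome 26.

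Adenosines inside the juvenile peaks had been scored by the authors for their likelihood of being m6A sites, with a score of at least 0.528 for a predicted site. Of the 53 peaks, 32 (60.4%) overlapped a peak of the Y6M list, against 75.4% of all compared peaks. Their exon blocks held 209 scored adenosines, of which 80 (38.3%) were predicted sites, against 41.1% over all compared peaks. In the introns between the blocks 14.3% of 1595 scored adenosines were predicted sites, against 20.4% over all compared peaks. At least 1 predicted site lay in the exon blocks of 25 of the 32 peaks, a count not made over all compared peaks. The highest number was 9, in the peak of ENSBGRG00000007159. Sites of the class with very high confidence occurred in 6 peaks of 5 genes. They made up 8 of the 209 scored adenosines (3.83%), against 6.92% over all compared peaks. The peak of ENSBGRG00000005086 (chromosome 9, 92419463 to 92419759) held 3 of them among 9 scored adenosines. The Y30M list covered chromosomes 1 and 2 here, where 2 of the 53 peaks lay. The peak of ENSBGRG00000006878 (chromosome 2, 10883911 to 10885115) overlapped both lists with 0 predicted sites among 5 scored adenosines in each, and that of ENSBGRG00000013915 overlapped neither.

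Few peaks of the abundant stable genes shifted between the ages by as much as 1.5-fold. A differentially methylated peak (DMP) was defined by the study through an unadjusted p of 0.05 and a 1.5-fold change. By the values the authors deposited, 2 of the 53 peaks (3.77%) were DMPs, against 14.6% of all compared peaks. The same 2 peaks were those past 1.5-fold at any p, against 20.3% of all peaks. Both were hypermethylated in Y30M, where 10.2% of all peaks were hypermethylated and 4.34% hypomethylated. MeTDiff called 0 hypomethylated DMPs on the abundant stable genes, with 13 of their peaks below 0 at an unadjusted p of at most 0.05. Abundant genes beyond the limit of 2 times likewise had 3 hypermethylated and 0 hypomethylated DMPs among 117 peaks. MeTDiff sets the IP reads against the same input libraries that the rule used, so the measures are not fully independent.

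The larger shift was in the peak of ENSBGRG00000018680 on chromosome 20 (59641932 to 59646312, 2 exon blocks of 150 bp in all). Its log2 fold change of methylation in the authors' deposited table was 1.26 (p = 6.76e-06, FDR = 1.35e-04), with an enrichment of 1.70 and an FDR of 1.58e-15 for that enrichment. The same gene had the lowest ratio of means among the abundant stable genes, 0.656, with 228 ± 26.8 FPKM at the younger age (SD, n = 3) and 150 ± 13.8 FPKM at the older (SD, n = 3). The other DMP was the strongly enriched peak of PSMC1 on chromosome 11 (94155616 to 94159038, 3 exon blocks of 199 bp in all), where the authors' table gives a log2 fold change of 0.72 (p = 0.0275, FDR = 0.0832) and an FDR of 1 for its own enrichment. PSMC1 had 148, 158 and 124 FPKM in its Y6M libraries against 227, 191 and 170 FPKM in those of Y30M, a ratio of means of 1.37 with no overlap between the ages. The ages lay apart in expression in both DMP genes, as they did in 54.1% of all genes tested. Among the 101 abundant stable genes they lay apart in 17 with Y30M above and in 12 with Y30M below. The rule used these values, and a link between expression and methylation was not tested. Neither DMP overlapped a peak of the Y6M list. The scaling of FPKM does not enter the deposited methylation values, but the place of each DMP gene among the abundant stable genes rested on it. PSMC1 did not meet the rule with TPM, and ENSBGRG00000018680 did not with a median-of-ratios scaling, which left 1 DMP either way.

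**Figure D4:**
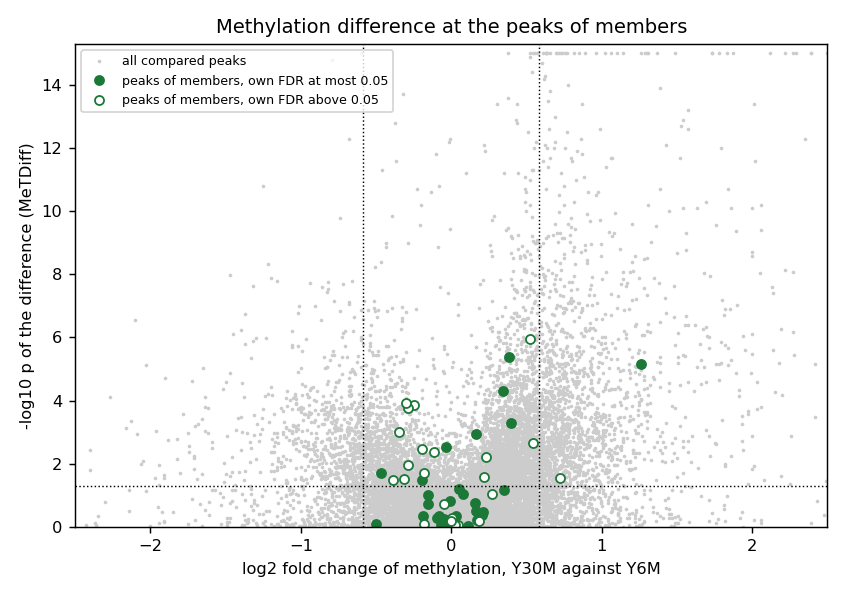
-log10 p of the methylation difference (MeTDiff) against its log2 fold change, positive for more methylation in Y30M, for all compared peaks (grey) and the 53 peaks of the abundant stable genes (green, filled where the peak's own FDR was at most 0.05). Dotted lines stand at a p of 0.05 and at a fold change of 1.5. Grey peaks beyond 15 are drawn at the top edge (53 peaks), 46 lie outside the x axis, and 2 green points lie past both lines, at 0.72 and 1.26.

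Most of the called shifts were small. An unadjusted p of at most 0.05 was listed for 23 of the 53 peaks (43.4%), on 20 genes, against 39.1% of all peaks, and an FDR of at most 0.05 for 16, against 28.1% of all peaks. Of these 23 peaks, 21 fell short of a fold change of 1.5, which is 39.6% of the 53 peaks against 24.5% of all peaks. The share of such small called shifts was 40.2% on abundant genes beyond the limit of 2 times, 34.9% on stable genes at 10 to 100 FPKM and 23.1% on those at 1 to 10 FPKM, and these differences were not tested. By direction 10 were above 0 (26.1% of all peaks were called so) and 13 below 0 (13% of all peaks). Of the 23, 8 also had an FDR of at most 0.05 for their own enrichment, as did 30 of all 53 peaks (56.6%). The same share among called peaks of all genes was not computed, so nothing is read from this count. In the authors' table the closest to the fold threshold were the peaks of ENSBGRG00000015262, at a log2 fold change of 0.54 (p = 0.00224), and ENSBGRG00000012468, at 0.53 (p = 1.10e-06). In ENSBGRG00000015262 the Y6M values of 112, 122 and 146 FPKM and the Y30M values of 141, 109 and 136 FPKM overlapped. ENSBGRG00000012468 had Y6M values of 226, 212 and 233 FPKM and Y30M values of 216, 234 and 125 FPKM, with Y30M replicate 3 below the other libraries. Downwards, the lowest values the authors list at a p within 0.05 were in ENSBGRG00000025829, at -0.47 (p = 0.0191), in the second peak of PSMC1, at -0.39 (p = 0.0324), and in ENSBGRG00000000444, at -0.35 (p = 0.00102).

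Over all 53 peaks the log2 fold change ran from -0.50 to 1.26, with a median of -0.0016 and quartiles of -0.18 and 0.18. Values above 0 made up 26 of 53 peaks (49.1%), against 58.5% of all compared peaks, whose median was 0.09. On abundant genes beyond the limit of 2 times the share was 47.9%, with a median of -0.026. On stable genes at 10 to 100 FPKM it was 57.4%, with a median of 0.067. The size of the shift at the 53 peaks, without its sign, had a median of 0.18 against 0.30 over all peaks. It was under 0.2 in 58.5% of the 53 peaks against 35.2% of all peaks. The size was larger in the less abundant classes of stable genes, with medians of 0.24 at 10 to 100 FPKM and 0.33 at 1 to 10 FPKM. Genes of the same abundance beyond the limit of 2 times had medians of 0.16, 0.22 and 0.31 from the highest class to the lowest. DMPs made up 7.42% of peaks on stable genes at 10 to 100 FPKM and 16.7% at 1 to 10 FPKM. The corresponding shares beyond the limit of 2 times were 2.56% at 100 or more, 7.04% at 10 to 100 and 16.0% at 1 to 10 FPKM. The shift sizes and DMP shares of the 2 stability classes thus lay near each other at each level, and their differences were not tested. The number of reads behind each peak is unknown.

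Of the 13 abundant stable genes with more than 1 peak, 8 (61.5%) had peaks on both sides of 0, against 54.6% of 4090 genes with more than 1 peak in the whole table, and 2 had all peaks above 0 and 3 all below. Most of these signs belonged to peaks with a p above 0.05. Among the 3 abundant stable genes with more than 1 peak at a p of at most 0.05, 2 (PSMC1 and ENSBGRG00000026208) had such peaks on both sides of 0. Over all genes this held for 397 of 1106 (35.9%). With exactly 2 peaks at any p, 7 of 11 abundant stable genes (63.6%) had peaks on both sides of 0. The share was 42.5% of 2407 such genes over all genes. These differences were not tested. The widest gap was in PSMC1, whose peaks lay at 0.72 and -0.39, the second on chromosome 11 from 94165027 to 94166055. In ENSBGRG00000026208 (chromosome 25), by the authors' values, the peak from 25046180 to 25047079 was at -0.25 (p = 1.41e-04) and the one from 25047353 to 25047871 at 0.23 (p = 0.00617). Its level was 243, 200.2 and 133 FPKM in the Y6M libraries and 240.1, 132 and 194 FPKM in those of Y30M, and the ages overlapped. The third of the 3 abundant stable genes was ENSBGRG00000013909, whose 4 peaks were all above 0, 2 of them at a p of at most 0.05 and none past 1.5-fold. They lay on chromosome 26 between 45315720 and 45320683. In this order along the chromosome, the authors' table gives log2 fold changes of 0.38, 0.34, 0.17 and 0.35, with p = 4.27e-06, 5.01e-05, 0.319 and 0.0676. All 4 had an FDR of at most 0.05 for their own enrichment and overlapped the Y6M list, with 7, 7, 5 and 3 predicted sites in their exon blocks. The expression of this gene, 146, 135 and 165 FPKM at the younger age and 188, 131 and 126 FPKM at the older, overlapped between the ages, with a ratio of means of 0.997.

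**Figure D5:**
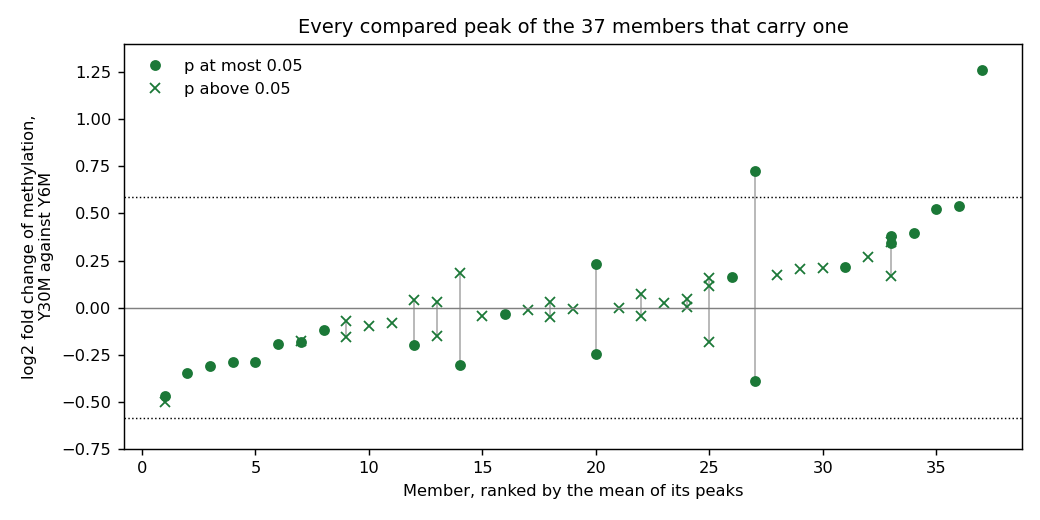
log2 fold change of methylation, Y30M against Y6M, for each of the 53 compared peaks on the 37 abundant stable genes that carry one, ranked by the mean of a gene's peaks, with dots for p of at most 0.05, crosses for larger p and grey lines joining peaks of the same gene. The dotted lines mark a fold change of 1.5, and 2 peaks lie above the upper line and 0 below the lower.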

How the data were processed

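The authors trimmed reads with Trimmomatic, removed ribosomal RNA with SortMeRNA and aligned them to LU_Bosgru_v3.0 with HISAT2. FPKM of the input libraries are as deposited by the authors, and the tool behind them is not given in the sources used here. Peaks come from the deposited MeTDiff table, with a fold enrichment (a ratio of IP over input), log10 p and FDR values, and a log2 fold change deposited in 2 columns of opposite sign. The column whose positive DMPs on chromosomes 1 and 2 overlapped the Y30M list only in 49 cases and the Y6M list only in 8 was used, so positive means more methylation in Y30M. The m6A score of each adenosine is as deposited, by a tool not given in the sources used here. The Y30M list of other chromosomes was not used here. Sites were matched to exon blocks by position, and starts are printed 1-based.

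The genes and lists were chosen with earlier results of these data known. Genes named by rule were the most abundant, the steadiest, those at the thresholds, those with DMPs, those with the most peaks or the highest enrichment, and list members. Further identifiers were singled out after their values were seen. Names came from the study's supplementary tables. Expression over all genes was fitted with limma 3.58.1 (R 4.3.3) on log2(FPKM + 1) in 19477 genes above 0, a scale that understates changes of low genes, and the script was tested on simulated data. Replicate numbers are shared by both ages, and deviations from the group means correlated at 0.237, 0.304 and 0.63 for numbers 1, 2 and 3 and at -0.506 to 0.335 between different numbers. Every same-number value was above 0.1, so a fit with the number as a block was also run. Nothing states further replication, so the limma p-values measure the spread between these yaks. For the MeTDiff p-values the spread between yaks cannot be checked, because the peaks carry no replicate values here. No sequence is shown because no table used holds one. Settings of the rule, the scaling, the libraries and the peak thresholds were varied.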

Additional observations from a re-analysis of the deposited data

How the results depend on the processing

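The number of abundant stable genes was 260 at 50 FPKM, 22 at 200 FPKM, 24 at 1.5 times and 174 at 3 times, and between 104 and 143 without 1 library each. Without replicate 3 of both ages, an alternative chosen after seeing the data, it was 168. Genes with a peak numbered 125, 4, 10 and 60 under the same 4 limits, 38 to 53 without 1 library each, and 20 when peaks counted only if their own FDR was within 0.05. DMPs on these genes numbered 5 at 50 FPKM, 0 at 200 FPKM and 0 at 1.5 times. They numbered 1 with TPM, 1 with a median-of-ratios factor, 1 with the FDR in place of p, 1 past a 2-fold change and 1 among peaks with their own FDR, and 2 in each fit without 1 library. Every DMP counted in these settings was hypermethylated in Y30M. Except at 50 FPKM, the DMPs counted were 1 or both of the same 2 peaks. The share of peaks above 0 was 25% at 200 FPKM (4 peaks) and 45.8 to 51.3% without 1 library each, against 49.1% by the rule. At 50 FPKM it was 43.8% (194 peaks), at 1.5 times 41.2% and at 3 times 50.6%. With TPM it was 55.8% and with a median-of-ratios factor 55.6%, nearer to the 58.5% of all peaks. After centring on the median of all peaks it was 35.8%, against 50.0% of all peaks. Predicted sites fell to 16.3% of scored adenosines at a score of at least 0.6, against 20.5% over all compared peaks at that score. The genes called by limma numbered 9747 (50%) with the replicate number as a block, against 9011, 8143 to 8945 without 1 library each, and 6878 to 10144 under the other settings. With TPM 5838 of 9005 were higher in Y30M and with a median-of-ratios factor 4968 of 9174, against 5320 of 9011. The causes of these moves were not tested. Peaks carry no replicate values and no read numbers, so the precision of a single shift is unknown, and no paired analysis of the peaks was possible because they were called over all replicates.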
